A study of Mus musculus with 6 samples.

Results

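The genes of interleukin 1 (IL-1) and interleukin 6 (IL-6) family signaling were examined in livers of mice after an overdose of acetaminophen (APAP), a drug that injures hepatocytes when taken in excess. The 10 genes were taken from the 34745 gene rows by their symbols. They are the IL-1 family ligands Il1b, Il18 and Il33 with the receptor antagonist Il1rn, the IL-1 receptor chains Il1r1 and Il1rap, and the IL-6 family receptor chains Il6ra, Il6st, Osmr and Lifr. Each of the 10 had enough counts to be tested. The mice were wild type (WT), and the study's Methods name male C57BL/6J mice aged 8 to 10 weeks. After a 12-hour fast they were injected intraperitoneally with APAP (300 mg/kg), 12 hours before the livers were taken, or with saline. Both groups thus shared the fast and the genotype. The libraries were made from total RNA with oligo(dT) priming and a SMARTER kit. Of the 6 labelled samples, 5 libraries were compared, namely APAP replicates 1 and 3 (APAP1 and APAP3) and 3 libraries named WT1, WT2 and WT3. The WT libraries were taken to be the saline group, since APAP names the remaining columns, and nothing ties them to a numbered saline sample. APAP replicate 2 was not analysed here.

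IL-1 family cytokines are made early by macrophages, neutrophils and dying cells. They signal through a ligand-binding chain paired with an accessory chain to activate NF-kappaB. The accessory chain is IL1RAP for IL-1 and IL-33, and IL18RAP for IL-18. IL-6 family cytokines use a specific chain (IL6RA, OSMR or LIFR) together with the shared chain encoded by Il6st. These receptor complexes activate JAK kinases and STAT3. In the liver both pathways act on hepatocytes to induce acute phase proteins, and the secreted antagonist encoded by Il1rn and the inhibitor SOCS3 restrain them.

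The total count was between 13378445 and 15976339 per library, and a count of 3 corresponded to between 0.176 and 0.269 CPM (counts scaled to a common library size) after TMM normalization. Hepatocyte markers were abundant in every library, with summed levels of 83070 and 139600 CPM with APAP and between 139100 and 193600 CPM with saline. None of the 9 that were tested was called at an adjusted p under 0.05, and by fold change (1.5 or more) with unadjusted P, 1 was higher and 2 were lower. Sex-linked genes separated the groups: Xist read 0.764 and 1.73 CPM with APAP against 289.6, 914 and 882 CPM with saline, and none of 4 Y-linked genes exceeded 1 count in a saline library. This pattern in the saline libraries conflicts with the male mice that the Methods name, and the identity of these libraries could not be checked further. APAP treatment and the sex that these genes mark therefore cannot be told apart here, for any gene. Below, rose and fell describe the difference between these groups of libraries. Libraries of the same group differed well beyond sampling noise, with a chi-square per degree of freedom between 43.2 and 92.2. No label says whether the libraries came from separate mice, so the p-values measure the spread between these libraries.

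Of the 10 genes, 3 differed between APAP and saline livers at an adjusted p under 0.05 (quasi-likelihood test of edgeR, Benjamini-Hochberg adjusted over 13734 genes). Il1rn and Osmr rose and Il18 fell. Among all tested genes, 7.23% were called, 3.7% as higher and 3.53% as lower. At the fold change of at least 1.5 and unadjusted P under 0.05 that the study used, 5 of the 10 were called, the others being Il1rap and Lifr, both lower, against 23.5% of all tested genes. In 4 of the 10 (Il1rn, Osmr, Il18 and Il1rap) both APAP values lay on the same side of all saline values, which held for 44.1% of all tested genes. The median log2 fold change of the 10 genes was 0.43, and that of all tested genes was 0.03. The 3 calls rested on few libraries. None was made when APAP1, APAP3 or WT2 was left out, and 1 was made without WT1. In a bulk liver sample, fewer cells of a type and less RNA per cell cannot be told apart.

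**Figure D1:**
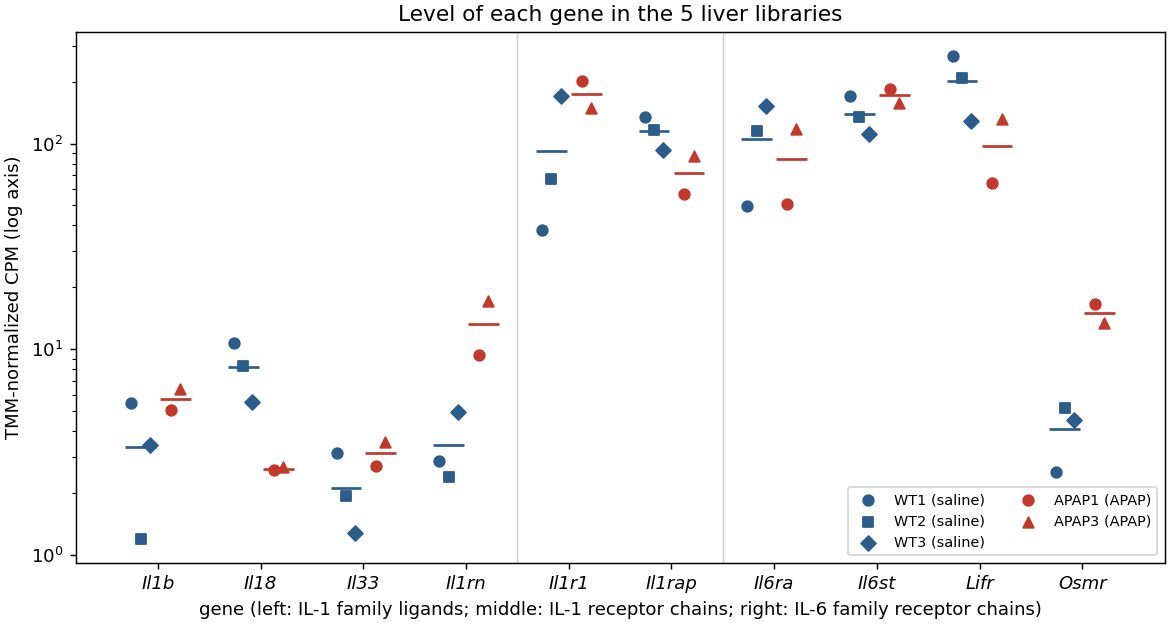
TMM-normalized CPM (log axis) of the 10 genes in each library, with saline in blue, APAP in red and horizontal bars at the group means. The red points of Il1rn and Osmr lie above all 3 blue points, those of Il18 and Il1rap below, and the groups overlapped for the other 6 genes.

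The sequences upstream of Il1rn and Il18, which moved in opposite directions, and of Socs3, the feedback inhibitor that rose with Osmr, are shown so that the results can be read beside them. All 10 genes matched the RefSeq promoter table (GRCm38.p6), from which the 250 bases before the transcription start were taken, and bases that fall in an annotated exon are left out. Both strands were searched for a STAT motif (TTCNNNGAA, in 7.02% of 32851 promoters of this length), an NF-kappaB motif (GGG, any 5 bases, CC, 45.8%), a C/EBP motif (TTGCNNAA, 9.56%) and an AP-1 motif (TGANTCA, 6.75%). Capitals mark the matches.
Il1rn (chr2:24336610-24336852, plus strand): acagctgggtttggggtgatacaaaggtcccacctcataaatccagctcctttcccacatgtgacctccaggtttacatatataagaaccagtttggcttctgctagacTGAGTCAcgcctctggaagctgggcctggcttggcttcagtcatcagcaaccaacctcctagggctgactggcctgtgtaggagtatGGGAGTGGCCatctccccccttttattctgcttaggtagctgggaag
Il18 (chr9:50554450-50554699, plus strand): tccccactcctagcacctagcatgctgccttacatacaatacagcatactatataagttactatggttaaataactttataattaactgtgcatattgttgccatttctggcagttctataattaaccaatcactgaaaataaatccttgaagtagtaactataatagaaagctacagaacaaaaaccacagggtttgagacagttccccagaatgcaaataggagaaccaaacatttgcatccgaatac
Socs3 (chr11:117969452-117969616, minus strand): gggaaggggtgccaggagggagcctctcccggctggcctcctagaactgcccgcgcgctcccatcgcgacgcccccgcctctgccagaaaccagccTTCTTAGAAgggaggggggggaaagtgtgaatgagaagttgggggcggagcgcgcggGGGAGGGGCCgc
Il1rn has 3 RefSeq starts, and the window shown is that before start 1. It held an AP-1 match at positions -141 to -135 and an NF-kappaB match at -54 to -45, counted from that start. The windows before starts 2 and 3, which lie within the deposited locus, held no match in the bases before the first exonic base. The Il18 window held no match to any of the 4 motifs. In Socs3, a STAT match lay at -154 to -146 and an NF-kappaB match at -97 to -88. NF-kappaB matches, some of them overlapping, were also present before RefSeq starts of genes whose levels leaned either way. There was a match before start 2 of Il1r1, with 6 for Il1rap and 8 over both starts of Lifr. Il6ra had overlapping matches between -224 and -214. The windows of Socs3, of start 2 of Il1r1 and of start 2 of Lifr lie within the deposited loci of these genes. The window of Osmr held 3 matches. No base of that window precedes the first exonic base, so the Osmr matches are not counted with the others. None of the 10 genes had a STAT match in its windows. A match is a run of letters and does not show that a factor binds there.

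Il1rn, the secreted antagonist that blocks the IL-1 receptor, rose with APAP. The gene lies on chromosome 2 (24336853 to 24351494, plus strand, ENSMUSG00000026981). It had 160 and 277 raw counts after APAP against 32, 36 and 74 in WT1, WT2 and WT3, or 9.40 and 17.1 CPM against 2.87, 2.39 and 4.94 CPM. Each APAP library was above each saline library. The mean was 13.3 ± 5.46 CPM with APAP (SD, n = 2) and 3.40 ± 1.36 CPM with saline (SD, n = 3), a 3.88-fold higher level (log2 fold change 1.96, standard error 0.42, adjusted p = 0.0412). The adjusted p rose to 0.0842 without APAP1, 0.186 without APAP3, 0.0973 without WT1 and 0.143 without WT2, while the log2 fold change stayed between 1.45 and 2.33 over 13 alternatives.

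Neutrophils and monocytes also make this antagonist, and some markers of both cell types rose beside it. Of 15 neutrophil markers, 12 were tested and 11 rose, and their summed level was 2179 and 746 CPM with APAP against 16.8, 14.6 and 71.2 CPM with saline, most of it Lcn2, which injured hepatocytes express as well. Ly6g, which defines the lineage, had 4 and 8 counts with APAP and 0 in every saline library. Of 9 monocyte marker rows, 3 rose (Chil3, F13a1 and Ccr2), with summed levels of 106.1 and 164.3 CPM against 111.8, 84.1 and 77.4 CPM. The part of these cells in the rise of Il1rn was not tested.

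Il1b, the secreted ligand that Il1rn opposes, did not pass the test. On chromosome 2 (129364570 to 129371139, minus strand, ENSMUSG00000027398), it had 86 and 104 counts with APAP and 61, 18 and 51 with saline. In CPM these were 5.05 and 6.43 against 5.47, 1.20 and 3.41. WT1 lay above APAP1, and the saline libraries spanned a 4.57-fold range. The difference was 0.78 on the log2 scale (standard error 0.58, adjusted p = 0.454), and no alternative called it. Its neighbour Il1a, which encodes the other agonist of the same receptor, had 31 and 66 counts with APAP and 44, 68 and 33 with saline (log2 fold change -0.27, adjusted p = 0.792).

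Il18, a ligand that caspase-1 activates and that drives interferon-gamma production, fell. Its locus in the deposited table (chromosome 9, 50575273 to 50581837, plus strand, ENSMUSG00000039217) begins downstream of the RefSeq start shown above. The counts were 44 and 43 with APAP and 119, 125 and 83 with saline, or 2.59 and 2.66 CPM against 10.7, 8.30 and 5.55 CPM. The APAP libraries were nearly equal, and both lay below the lowest saline library, WT3. The level was 3.10-fold lower (log2 fold change -1.63, standard error 0.38, adjusted p = 0.0491), close to the threshold. The call was lost with upper-quartile factors (adjusted p = 0.0563), with library size only (0.0865), and without APAP1 (0.230), APAP3 (0.162), WT1 (0.102) or WT2 (0.156). In the liver Il18 is known from Kupffer cells, the resident macrophages, and 1 of 10 Kupffer cell markers fell (Slc40a1). By fold change 7 of the list leaned lower and 3 higher, among them Marco (log2 fold change 2.49, adjusted p = 0.0625), which was not called. The summed level of that list was 302.5 and 567.3 CPM with APAP and 570, 428.9 and 526.4 CPM with saline, so that the groups overlapped, and the part of these cells in the fall of Il18 was not tested.

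Il33, a nuclear alarmin released by damaged cells, was low in every library. Its locus is on chromosome 19 (29925114 to 29960718, plus strand, ENSMUSG00000024810), and it had 46 and 57 counts with APAP and 35, 29 and 19 with saline. APAP1, at 2.70 CPM, lay below WT1, at 3.14 CPM. On the log2 scale APAP exceeded saline by 0.57 (standard error 0.49, adjusted p = 0.523).

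Other ligands of the IL-1 family were scarce. Of 7 further ligand and decoy genes in the table, 4 had no count in any library, and none of the 3 tested was called. Il1f9, an IL-36 ligand gene, had 24 and 18 counts with APAP and 0, 0 and 9 with saline (log2 fold change 2.53, adjusted p = 0.259), and it was the single call of the list when WT3 was left out. Il18bp, which encodes the decoy that binds IL-18, was at 11.5 and 14.3 CPM with APAP and 13.2, 9.83 and 11.3 CPM with saline (adjusted p = 0.703). The Il18bp values overlapped, whereas those of its ligand did not. The 7 inflammasome and processing genes, among them Gsdmd and Aim2, gave no call either, by this test, by the other tests or at unadjusted P.

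Il1r1, the chain through which IL-1 signals, varied among the saline livers. On chromosome 1 (40225080 to 40317257, plus strand, ENSMUSG00000026072), it was at 201.7 and 148.8 CPM with APAP against 38.2, 67.1 and 170.2 CPM with saline. WT3 exceeded APAP3, so that the groups overlapped. The estimate was 0.93 on the log2 scale (standard error 0.57, adjusted p = 0.371). Without WT3 it was 1.73 with an adjusted p of 0.0435, and no other alternative made this call.

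Il1rap encodes the shared accessory chain of the IL-1, IL-33 and IL-36 receptors. On chromosome 16 (26581704 to 26730117, plus strand, ENSMUSG00000022514), it was at 57.2 and 86.8 CPM with APAP against 135.2, 116.7 and 92.8 CPM with saline. Both APAP values were lower than every saline value. The difference of 1.60-fold (log2 fold change -0.67, standard error 0.28, unadjusted P = 0.0480) did not pass the adjustment (adjusted p = 0.197). Il1rap overlaps the antisense gene Gm20319, which had between 390 and 752 counts per library, and without a stated strand setting their reads cannot be told apart.

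Il1r1 is part of a receptor cluster on chromosome 1 (40074079 to 40551705) that also holds Il1r2, Il1rl2, Il1rl1, Il18r1 and Il18rap. Il1r2, the decoy that binds IL-1 without signaling, had 91 and 39 counts with APAP and 0, 4 and 8 with saline. These counts did not overlap, and the log2 fold change of 3.75 (standard error 0.89) fell just short of the threshold (adjusted p = 0.0535). Il1rl1, the IL-33 receptor, had 9 and 2 counts against 1, 1 and 2 and stayed under the filter. Il18rap, the accessory chain for IL-18, was higher in both APAP libraries (55 and 36 counts against 14, 12 and 17, log2 fold change 1.36, adjusted p = 0.135). Sigirr, an inhibitory receptor outside the cluster, was lower (9.87 and 13.3 CPM against 29.6, 18.7 and 19.8 CPM, log2 fold change -0.97, adjusted p = 0.0940). None of the 5 receptor genes tested in this list was called by the quasi-likelihood test (1 by the likelihood ratio test, 2 by DESeq2 and 3 at unadjusted P with a fold change of 1.5 or more).

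Among the IL-6 family receptor chains, Osmr rose. It encodes the oncostatin M receptor and lies on chromosome 15 (6813577 to 6874969, minus strand, ENSMUSG00000022146). It had 282 and 217 counts with APAP and 28, 78 and 68 with saline, or 16.6 and 13.4 CPM against 2.51, 5.18 and 4.54 CPM. Both APAP libraries were well above the highest saline library, WT2. The mean was 15.0 ± 2.23 CPM with APAP (SD, n = 2) and 4.08 ± 1.40 CPM with saline (SD, n = 3), a 3.65-fold higher level (log2 fold change 1.87, standard error 0.35, adjusted p = 0.0286). The call held under 10 of 13 alternatives, and the adjusted p was 0.156 without APAP1, 0.0729 without APAP3 and 0.0834 without WT2. Beside it, 2 of 5 tested cholangiocyte markers rose (Sox9 and Spp1), and the list had summed levels, mostly Spp1, of 347.1 and 355.7 CPM against 47.1, 52.3 and 48.0 CPM. Stellate cell markers summed to 380.5 and 561.2 CPM with APAP and to 660.7, 536.6 and 595.7 CPM with saline, with 1 of 10 called (Col1a1, higher). The part of these cells in the rise of Osmr was not tested.

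Lifr, the leukemia inhibitory factor receptor, is the neighbour of Osmr on the opposite strand, with 254590 bases between the ends of the loci, and its values leaned the other way. Its position is chromosome 15, 7129559 to 7197489 (plus strand, ENSMUSG00000054263). The level was 64.0 and 131.8 CPM with APAP and 265.9, 208.9 and 128.6 CPM with saline. APAP3 was slightly above WT3, so that the groups overlapped. The fitted log2 difference was -1.04 (standard error 0.43, unadjusted P = 0.0454, adjusted p = 0.191).

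Il6ra and Il6st, which together form the IL-6 receptor, did not pass the test. Il6ra (chromosome 3, 89864059 to 89913196, minus strand, ENSMUSG00000027947) was at 50.9 and 118.3 CPM with APAP against 49.6, 114.9 and 152.8 CPM with saline, and each group held a low and a high library. The fitted difference of -0.32 on the log2 scale (standard error 0.53, adjusted p = 0.755) turned sign without APAP1 (0.17) or WT3 (0.04). Il6st (chromosome 13, 112464070 to 112510086, plus strand, ENSMUSG00000021756) was the steadiest of the 4 chains, at 185.4 and 157.6 CPM with APAP and 170.9, 134.9 and 112.0 CPM with saline. APAP3 lay below WT1. Its log2 fold change of 0.30 (standard error 0.26) was not called (adjusted p = 0.518).

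**Figure D2:**
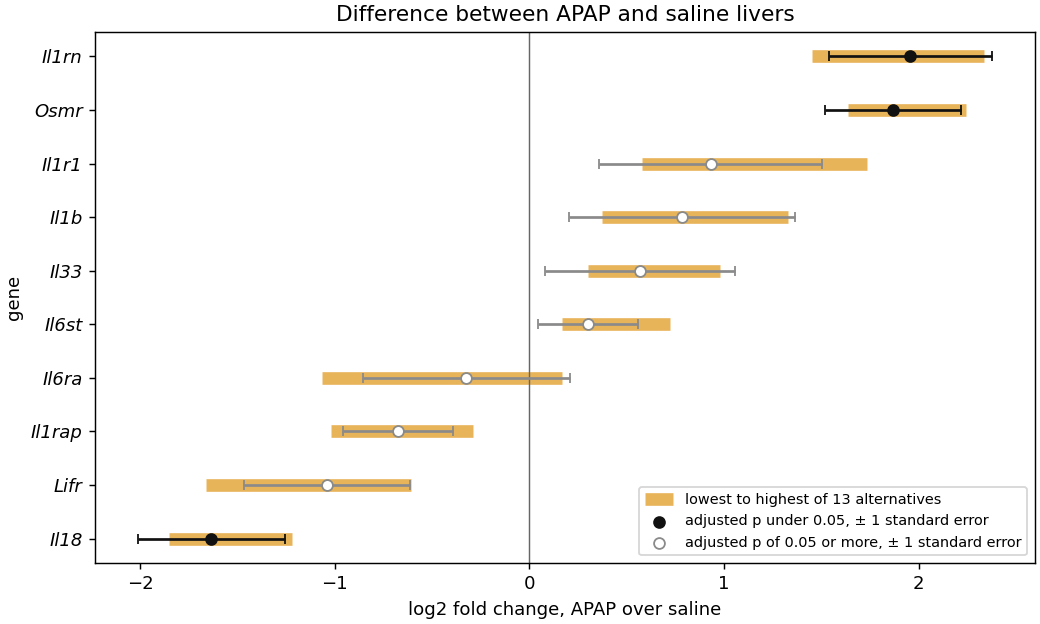
Log2 fold change of each gene, APAP over saline, with 1 standard error to each side, filled points for an adjusted p under 0.05 and orange bars from the lowest to the highest value over 13 alternatives. Il1rn at 1.96, Osmr at 1.87 and Il18 at -1.63 are filled, and the orange bar of Il6ra spans 0.

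The cytokines that use these IL-6 family chains were mostly near the limit of detection. Il6 itself had 0 and 2 counts with APAP and 0, 0 and 5 with saline. Osm, the ligand of Osmr, had 5 and 2 counts with APAP and 0 in every saline library, where a count of 0 allows up to 0.269 CPM. Lif had 7 and 7 counts against 0, 0 and 3, and Il11 had 1 and 4 against 0, 1 and 1. These genes were under the filter and were not tested, and counting error alone limits what they can show. Of 11 ligand genes, 6 were under the filter, Il31 had no count, and 1 of the 4 tested was called.

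That gene was Clcf1, which encodes cardiotrophin-like cytokine factor, a ligand of the ciliary neurotrophic factor receptor complex. It had 627 and 182 counts with APAP and 2, 16 and 22 with saline, or 36.8 and 11.3 CPM against 0.179, 1.06 and 1.47 CPM. APAP1 was the highest library by a wide margin, and both APAP libraries were above all saline libraries. The rise was 4.67 on the log2 scale (standard error 0.74, adjusted p = 0.0177). It was 3.59 without APAP1 and 5.28 without APAP3. Each of these fits had a lone APAP library, so only the size is given and neither shows that the call holds. Without WT2 it was 4.78 and the call was lost (adjusted p = 0.0881). Of the 50-base words in the Clcf1 transcript, 14.6% occur in other genes, most of all in AC109138.7. Its receptor gene Cntfr was at 0.823 and 0.433 CPM with APAP against 1.97, 2.39 and 2.81 CPM with saline (log2 fold change -1.91, adjusted p = 0.0825). Ctf1, which with Clcf1 had the highest CPM of the list averaged over the 5 libraries, was at 5.58 and 3.83 CPM against 5.29, 4.58 and 3.14 CPM (adjusted p = 0.875). Il11ra1, of the other receptor genes, had a log2 fold change of -0.57 (adjusted p = 0.222). Of its words, 46.5% occur in other genes, most of all in Gm13305.

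**Figure D3:**
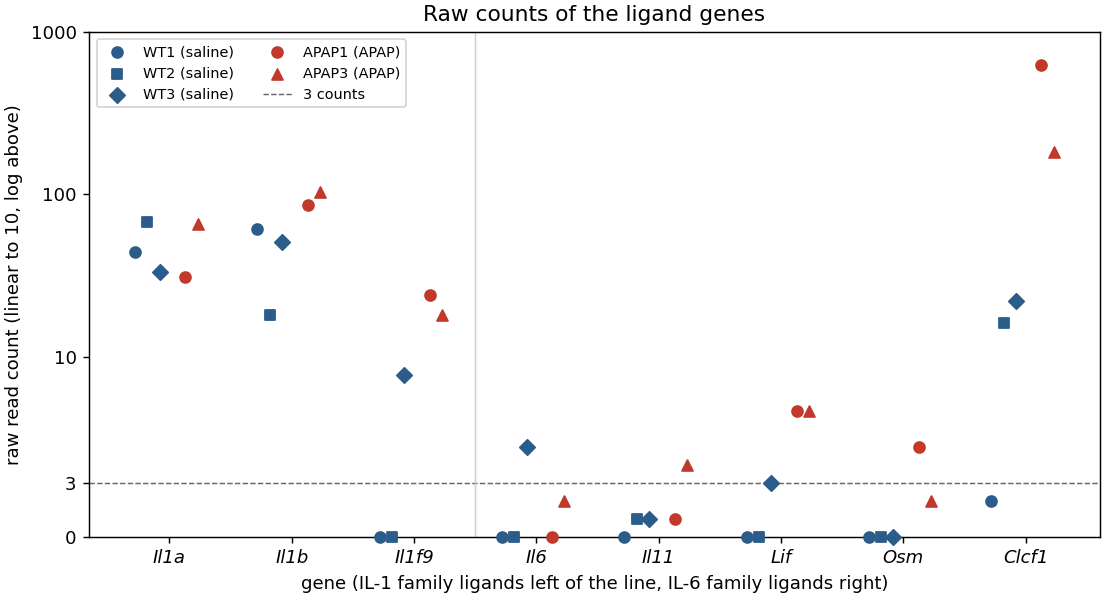
Raw read counts (linear to 10, log above) of 8 ligand genes in each library, with saline in blue, APAP in red and a dashed line at 3 counts. Il6, Il11, Lif and Osm stayed at 7 counts or fewer in every library, whereas Clcf1 reached 627 and 182 counts with APAP against at most 22 with saline.

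Per kilobase of exon, the 10 genes fell into a higher and a lower tier in saline livers, and the receptor chain Osmr was in the lower. In saline livers the mean levels in CPM per kilobase were 18.9 for Lifr, 14.4 for Il1r1, 12.6 for Il6st, 12.2 for Il6ra, 11.4 for Il18 and 10.1 for Il1rap, and neighbours in this order overlapped between libraries. A gap separated these from Il1b at 1.76, Il33 at 0.731, Il1rn at 0.615 and Osmr at 0.337 CPM per kilobase. By this length Osmr was thus the lowest of the 10 genes in saline livers, below Il1rn without overlap. By the longest transcript Osmr reached 0.944 CPM per kilobase in WT2, above Il1rn at 0.936 in WT2, so that their values overlapped. With APAP, Il1r1 was first at 27.5 CPM per kilobase, above Il6st at 15.5 without overlap. Il18 had moved down to 3.67, next to Il1b at 3.01 and Il1rn at 2.40, and Osmr was at 1.24 and Il33 at 1.08 CPM per kilobase, the last pair overlapping. The order depends on the length used. With the longest transcript in place of all exons only 3 of the 10 genes kept their rank in saline livers.

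Downstream of the IL-1 receptors, none of the 25 genes of signal transduction to NF-kappaB was called (median log2 fold change -0.03). At unadjusted thresholds 4 of them were higher and 1 was lower, and DESeq2 called 3. The 2 with the highest mean CPM were Chuk, a kinase of the IkappaB kinase complex, at 90.1 and 83.4 CPM with APAP against 146.2, 141.2 and 158.3 CPM (log2 fold change -0.78, adjusted p = 0.0723), and Tab2, an adaptor of the kinase TAK1, with a log2 fold change of -0.44 (adjusted p = 0.301). Both APAP values of Chuk were below all its saline values.

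Of 16 tested genes of IL-6 family signal transduction, 1 rose and 1 fell, and the median log2 fold change was 0.00. Socs3, the inhibitor that STAT3 induces, was at 38.0 and 33.7 CPM with APAP against 7.35, 4.78 and 14.1 CPM with saline (log2 fold change 2.03, standard error 0.42, adjusted p = 0.0374). The groups did not overlap, and WT3 was the highest saline library. The adjusted p of Socs3 lay between 0.0953 and 0.167 when APAP1, APAP3, WT1 or WT2 was left out. Stat5b, a STAT protein best known in liver for growth hormone signaling, fell from 97.2, 85.0 and 80.4 CPM with saline to 29.5 and 28.7 CPM with APAP (log2 fold change -1.59, standard error 0.21, adjusted p = 0.00981). Its adjusted p was 0.0913 without APAP1, 0.0642 without APAP3 and 0.0558 without WT2, and 11.8% of its words are shared with Stat5a. Stat3 and Jak1, the genes of highest mean CPM in the list, had log2 fold changes of 0.05 (adjusted p = 0.951) and 0.19 (adjusted p = 0.632).

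Of the 11 calls in the 8 lists of other pathway genes, 8 were in the pooled list of hepatic target genes of IL-1 and IL-6. Which pathway acts on each gene was not tested. Of 29 tested, 8 rose, none fell and 21 were not called, with a median log2 fold change of 0.77. With the unadjusted thresholds given above, 14 were higher and 3 lower. Lcn2, which encodes an iron-carrier-binding lipocalin and is also among the neutrophil markers above, was at 2045 and 661 CPM with APAP against 11.8, 9.50 and 62.1 CPM with saline (log2 fold change 5.60, standard error 0.97, adjusted p = 0.0231). The serum amyloid genes Saa2 and Saa1 had log2 fold changes of 5.28 (adjusted p = 0.0187) and 5.23 (adjusted p = 0.0158). Of the words of Saa1, 14.8% occur in other genes, most of all in Saa2, so that reads of Saa1 and Saa2 may be shared. In APAP1, Saa1 was at 2268 CPM and in APAP3 at 391.8 CPM, against at most 56.1 CPM with saline. The size of the Saa1 value thus differed between the APAP livers while its direction did not. Without APAP1, the log2 fold change was 3.17 for Saa2, 3.48 for Saa1 and 4.57 for Lcn2, and without APAP3 it was 6.09, 5.99 and 6.19. Without WT3, that of Lcn2 was 6.99.

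Cxcl1, a neutrophil-attracting chemokine, was at 113.1 and 153.3 CPM with APAP against 3.32, 6.78 and 3.21 CPM with saline (log2 fold change 4.90, standard error 0.39, adjusted p = 0.00213), and it was called under all 13 alternatives. Serpina3n, a protease inhibitor, had a log2 fold change of 2.57 (adjusted p = 0.0180, and 1.90 without APAP1), and Apcs, the pentraxin serum amyloid P, of 2.31 (adjusted p = 0.00607). The other 2 genes called in the list, Junb (2.13, adjusted p = 0.0468, and 1.22 without APAP3) and Bcl3 (1.02, adjusted p = 0.0341), encode regulators of transcription and lie past the 6 to be named per list. The targets with the highest CPM averaged over the 5 libraries were C3, the central complement component, and Fgb, a fibrinogen chain, with log2 fold changes of -0.86 (adjusted p = 0.279) and 0.77 (adjusted p = 0.252). Neither was called, although APAP and saline values did not overlap for either gene. The 8 calls became 5 without APAP1, 3 without WT1 and 1 without WT2. Of the 8 genes, Cxcl1 was called without WT2 and the other 7 had adjusted p between 0.0558 and 0.145.

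Over all 8 lists of other pathway genes, 92 of the 108 genes with a gene row were tested. Of these, 10 rose and 1 fell (12.0% called, against 7.23% of all tested genes). WT3 was the highest saline library for 52.2% of these 92 genes, against 36.1% of all tested genes.

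**Figure D4:**
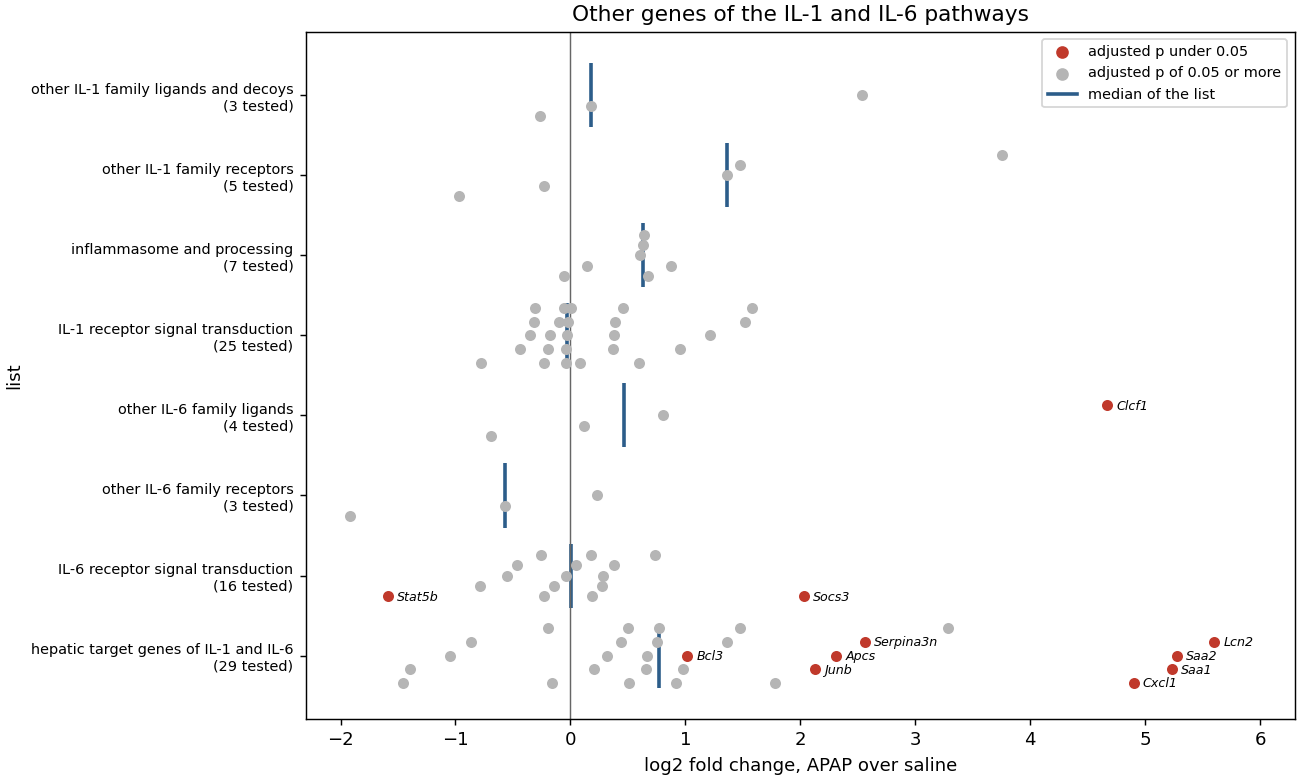
Log2 fold change, APAP over saline, of the tested genes in 8 lists of the IL-1 and IL-6 pathways, with red points for an adjusted p under 0.05 and a blue line at each list's median. The red points are 8 of 29 hepatic target genes, Socs3, Stat5b and Clcf1, and no gene of the 4 other IL-1 family lists or of the other IL-6 family receptors was called.

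The genes whose profiles over the 5 libraries were most like those of the 3 called genes are given as a description. The measure was the root mean square difference of centred log2 CPM. For Il1rn they were Treh (0.124) and Efhd2 (0.140), for Il18 Fmo1 (0.0374) and Mthfd1 (0.0497), and for Osmr Mterf2 (0.116) and Ifitm6 (0.122). Treh was at 0.179, 0.133 and 0.735 CPM with saline and Ifitm6 at 0.0896, 0.399 and 0.401 CPM. At such levels the added 0.5 CPM compresses differences. Their log2 fold changes were 2.93 and 2.99, against 1.96 for Il1rn and 1.87 for Osmr, so a small distance here does not mean an equal change. Fmo1, a drug-metabolizing monooxygenase of hepatocytes, was at 101.5 and 104.7 CPM with APAP against 352.9, 287.3 and 206.6 CPM with saline. It thus followed the order of the libraries seen for Il18.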

How the data were processed

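Per the study's Methods, liver RNA was sequenced on an Illumina NovaSeq platform, and HISAT2 is named as the source of the read counts. The values that the authors deposited and that were used are raw read counts of genes, not normalized. A further 5 columns hold FPKM and were not used. The submitters' processing notes name GRCm38. The program version, annotation and strand setting are not given in the sources used here. Coordinates were taken from the deposited table, and 8 of the 10 genes have the same locus in GENCODE M21.

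The analysis used edgeR 4.0.16 in R 4.3.3. After filtering by filterByExpr (at least 10 counts, total of at least 15) and TMM normalization, 13734 genes entered the quasi-likelihood test (glmQLFTest), and p was adjusted over them by the Benjamini-Hochberg method. The biological coefficient of variation was 33.3%. The design had been written for 3 APAP libraries and was kept with 2. The standard error is the absolute log2 fold change divided by the square root of the F statistic. Floors cover counting error alone, as no molecular identifiers were used. Shared reads were estimated from 50-base words that the longest coding transcript has in common with other genes. Exon lengths come from GENCODE M21 exons within the deposited locus.

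The 10 genes, the gene lists and the markers were chosen with earlier results of these data known. Named were all 10 genes, the genes called in each list (at most 6, largest log2 fold change first), the 2 genes of highest mean CPM over all libraries per list, the low ligands and the 2 most similar profiles per called gene (pseudocount 0.5 CPM). Genes of the receptor cluster and Il1f9 were added after their values were seen. The alternatives were 2 further edgeR tests (likelihood ratio and exact), DESeq2 1.42.0, other size factors, 2 other filters, another threshold and each library left out in turn.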

Additional observations from a re-analysis of the deposited data

How the results depend on the processing

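Leaving out each library in turn gave between 0 and 4 calls among the 10 genes at the adjusted p (3 with all libraries) and between 3 and 6 at a fold change of at least 1.5 with unadjusted P under 0.05 (5 with all libraries; using that threshold in place of the adjusted p thus gave 5). The latter count was 3 with upper-quartile factors. Among the other pathway genes, the 11 calls became 20 with the likelihood ratio test, 20 with the exact test, 23 with DESeq2 and 22 with library size only, and between 1 and 11 with a library left out. Over all tested genes, the 993 calls became 1835, 1776 and 2093 with the likelihood ratio test, the exact test and DESeq2, and between 165 and 922 with a library left out. With library size only, the median of all genes moved by 0.39 on the log2 scale and the share of calls that were higher from 51.2% to 77.8%. The log2 fold change of Il6ra lay between -1.07 and 0.17 with a library left out, turning sign without APAP1 (0.17) and without WT3 (0.04). With the longest transcript, 3 of the 10 genes kept their rank by level per kilobase. Of 130 alternative fold changes of the 10 genes, 114 kept direction and side of the threshold, 13 lost the call, 1 gained it and 2 turned sign. Clcf1 had no value with at least 10 counts in every library. The cause of these changes was not tested. No paired analysis was possible because the saline columns carry no sample numbers. With 2 APAP libraries, leaving out either leaves a lone sample that is assumed to vary like the saline group. Genes near 3 counts, such as Il6 and Osm, are limited by depth.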
